A study of Homo sapiens with 23 samples.

Results

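Mitochondrial ribosomal protein mRNAs were followed in heavy polysomes of 2 human lymphoma cell lines treated with the mTOR inhibitor INK128 or with ethanol (EtOH). The genes were taken by name: every gene whose symbol was MRPL or MRPS followed by a number and at most 1 letter. They numbered 76, out of 14636 genes and unnamed probes tested. All 76 had at least 1 probe with a detection p at or under 0.02 on every one of the 23 arrays. Of 110 matching probes 104 were kept, because all arrays of 1 group or more detected them, and 98 of these were detected on all 23 arrays. The 6 probes left out belonged to MRPL4, MRPL10, MRPL39, MRPL44, MRPL55 and MRPS18C and were detected on 0 to 6 arrays. Just inside the limit lay 1 MRPS12 probe, detected on 4 arrays, and 1 MRPL43 probe, detected on 8 arrays. A single kept probe measured 53 of the genes, and several probes, averaged, measured the other 23. The 76 encode 50 proteins of the large subunit and 26 of the small subunit. By a list of known homologues, 47 are bacterial-type, meaning that the bacterial ribosome has a counterpart. The other 29 have none there and are called specific to mitochondria.

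The mitochondrial ribosome translates the few respiratory chain subunits that are encoded in mitochondrial DNA. Its RNA is made inside the organelle, but every one of its proteins is encoded in the nucleus, translated on cytosolic ribosomes and then imported. The mRNAs of these proteins are therefore cargo of cytosolic polysomes, and the polysomal level of each of them can be read beside that of any other nuclear mRNA. B-cell lymphomas that rely on oxidative phosphorylation need this organellar ribosome for their respiratory chain.

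SUDHL-2 is a line of the activated B-cell-like (ABC) subtype of diffuse large B-cell lymphoma and SUDHL-4 of the germinal centre B-cell-like (GCB) subtype, and each stands for its subtype as 1 established line. Cells received INK128, an ATP-competitive inhibitor of mTOR kinase, at 40 nM for 24 h against 0.01% DMSO, or EtOH at 20 mM for 48 h in sealed flasks against water. Cytoplasmic lysates were spread on 10 to 50% sucrose gradients, and fractions 9 to 11 of 11, the heaviest polysomes, were pooled for the arrays. The 8 groups were SUDHL-2 with INK128, SUDHL-4 with INK128, SUDHL-2 with EtOH and SUDHL-4 with EtOH, and the same lines with DMSO and with water. Each had 3 arrays, except SUDHL-2 with EtOH, which had 2. No allele, transgene or sorting step was part of the design, and although the replicates are called independent in the study, neither the labels nor the methods say whether they were separate cultures, so p-values measure the spread between these arrays, which may be technical.

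Each array carried 0.5 µg of polysomal RNA whatever the size of the polysome pool, so that a fall of the whole pool could not be seen. Total RNA was not analysed here, and less mRNA in the cell and less of the mRNA in heavy polysomes cannot be told apart. Between 14699 and 17098 probes were detected per array, and arrays of 1 group correlated at 0.959 or more. Of the B-cell markers 6 of 7 were detected on every array, PAX5 on none. Of markers of other cells an array detected at most 2 of 5 for T cells, 3 of 5 for myeloid cells, 1 of 4 for epithelium and 1 of 3 for fibroblasts. CD3D, CD3E, CD8A, CSF1R, KRT8, KRT18, KRT19, COL1A1 and COL1A2 were detected on none, whereas EPCAM was detected on 11 SUDHL-2 arrays and 1 SUDHL-4 array, DCN on 1 and 12, CD2 on 10 and 11, and LYZ on 7 and 11, in the same order. The part of such cells in the results was not tested. Of the ABC markers 6 to 8 of 8 were detected in SUDHL-2, against 3 to 5 in SUDHL-4, and of the GCB markers 4 to 6 of 7 in SUDHL-2, against 7 in SUDHL-4.

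Levels below are log2 signals after each array was brought to the same mean and spread. A level of 0 is the mean of the kept probes of an array, and a negative level is dimmer than that mean. A difference of 1 is a 2-fold difference in signal on an array of mean spread, and only near 2-fold on others. Folds below are on this rescaled scale. Each fold change is a difference of group means on this log2 scale, with the standard error (SE) of limma's linear model. A gene was called higher or lower at an adjusted p under 0.05, where p-values were adjusted by Benjamini and Hochberg's method over all 14636 genes and probes tested. Levels of different single genes are not compared with each other, since their probes differ. Shares, medians and counts over all genes are given below as a background that was not matched for level.

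In SUDHL-4, many of these mRNAs were lower in heavy polysomes with INK128. The level fell for 25 of the 76 (32.9%) and rose for 0, against 7.17% called lower and 8.27% called higher over all genes tested. At an unadjusted p under 0.05, 38 were lower (50%) and 0 higher, against 13.2% lower and 13.7% higher over all genes. The fold change was below 0 for 68 of the 76, with a median of -0.39 and a range of -1.23 to 0.31, whereas the median over all genes was -0.06. In 47 of the 76 every INK128 array was below every DMSO array, which held for 2674 of the 14636 genes and probes tested. On the DMSO arrays of SUDHL-4 the median level of the 76 was 2.34, 2.36 and 2.56, against -0.65, -0.67 and -0.67 over all genes. All genes are thus a dimmer set, and the part of this difference in level in the shares and counts was not tested.

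**Figure D1:**
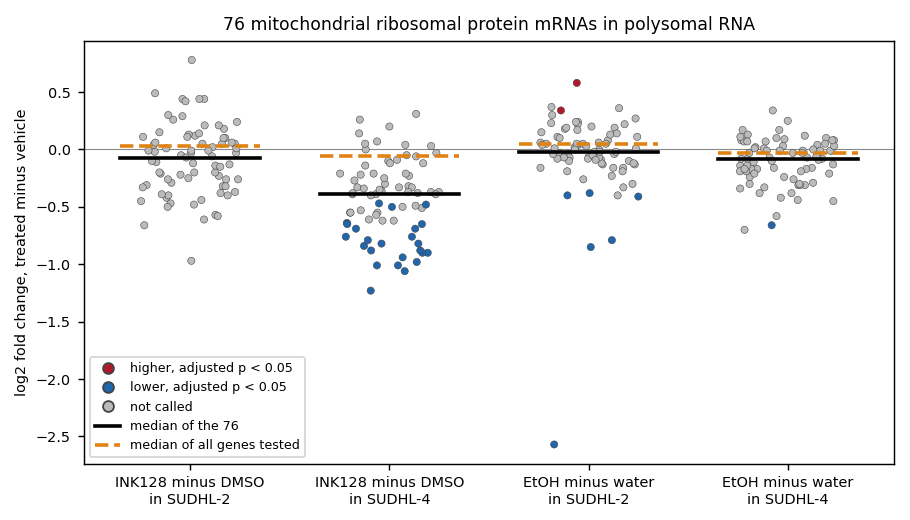
Fold change of each of the 76 mitochondrial ribosomal protein mRNAs in the 4 treatment comparisons, on the log2 scale. Each point is 1 gene, coloured points were called by limma at an adjusted p under 0.05, and lines mark the median of the 76 and the median of all genes tested. The INK128 points of SUDHL-4 lie mostly below 0, with 25 called lower, and MRPS34 with EtOH in SUDHL-2 is the lowest point, at -2.57.

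The shift was seen on each array. Set against the mean of the DMSO arrays of SUDHL-4, the median of the 76 genes was -0.43, -0.37 and -0.46 on the 3 INK128 arrays, against -0.03, -0.03 and 0.05 on the 3 DMSO arrays. The same medians over all genes on the INK128 arrays were 0.03, 0.00 and -0.11. All 3 INK128 arrays thus lay below all 3 DMSO arrays for the group of 76.

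The largest decrease was that of MRPS17, a small-subunit protein with a bacterial counterpart that binds ribosomal RNA. Its level was 2.75, 2.70 and 2.53 with INK128, against 3.90, 3.75 and 4.03 with DMSO. The fold change was -1.23 (SE 0.18, adjusted p = 0.00069), which is 2.35-fold lower with INK128. The highest INK128 array lay below the lowest DMSO array.

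MRPS18C, the form of the bacterial S18 protein that sits at the usual S18 place in the small subunit, had levels of 3.39, 3.04 and 3.10 with INK128, against 4.21, 4.09 and 4.18 with DMSO. It fell by 0.98 (SE 0.18, adjusted p = 0.00272), and the arrays of the groups did not overlap. The other relatives of bacterial S18 did not pass the test: MRPS18A had a fold change of -0.09 and MRPS18B of -0.03. Of the 3 relatives of 1 bacterial protein only MRPS18C was thus called, and the differences among them were not tested. Without a detection filter, which lets in an MRPS18C probe detected on 0 arrays, MRPS18C was at -0.51 (adjusted p = 0.0368).

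The other 8 of the 10 largest decreases belonged to the large subunit. MRPL36 encodes one of its smallest proteins, and its level was 3.08, 3.32 and 2.93 with INK128 and 4.04, 4.20 and 4.27 with DMSO, a change of -1.06 (SE 0.23, adjusted p = 0.00854). MRPL20, an RNA-binding protein of the large subunit, was at 2.45, 2.21 and 1.67 with INK128 and 2.99, 3.14 and 3.22 with DMSO, and fell by 1.01 (SE 0.28, adjusted p = 0.0264). The third INK128 array was the lowest of the 3 for both genes. MRPL55, the counterpart of bacterial L31, was at 1.23, 1.26 and 0.93 with INK128 and 1.91, 2.29 and 2.25 with DMSO, and fell by 1.01 (SE 0.18, adjusted p = 0.00267).

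MRPL12 belongs to the stalk that recruits translation factors to the ribosome. Its level was 1.85, 2.12 and 1.75 with INK128 and 2.55, 2.91 and 2.96 with DMSO, a change of -0.90 (SE 0.23, adjusted p = 0.0180). MRPL4, which lines the tunnel through which the new protein leaves, was at 1.41, 1.51 and 1.24 with INK128 and 2.17, 2.50 and 2.11 with DMSO, and fell by 0.88 (SE 0.19, adjusted p = 0.00807). The groups were apart for both. MRPL21 was at 2.47, 2.38 and 2.22 with INK128 and 3.20, 3.29 and 3.24 with DMSO, a change of -0.88 (SE 0.16, adjusted p = 0.00292). MRPL33 fell by 0.94 (adjusted p = 0.0128) and MRPL17 by 0.90 (adjusted p = 0.0424). Both also have bacterial counterparts.

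MRPL52, which is specific to mitochondria, had the smallest adjusted p of the 76, and its replicates were close to each other. The level was -0.42, -0.45 and -0.40 with INK128 and 0.40, 0.25 and 0.55 with DMSO, so that it changed by -0.82 (SE 0.11, adjusted p = 0.000449). The other 14 that fell were MRPL2, MRPL11, MRPL14, MRPL18, MRPL24, MRPL32, MRPL38, MRPL46, MRPL58, MRPS2, MRPS5, MRPS15, MRPS21 and MRPS26. Their fold changes ran from -0.84 for MRPL14, which lies at the interface of the subunits, to -0.47 for MRPL24. Among them MRPL58, a peptidyl-tRNA hydrolase that frees stalled ribosomes, fell by 0.76. MRPL18, known in human cells for its part in bringing 5S rRNA to mitochondria, also fell by 0.76. On the high side nothing was called, and the smallest p-values there belonged to MRPS35 (0.31, adjusted p = 0.237) and MRPS14 (0.26, adjusted p = 0.469).

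**Figure D2:**
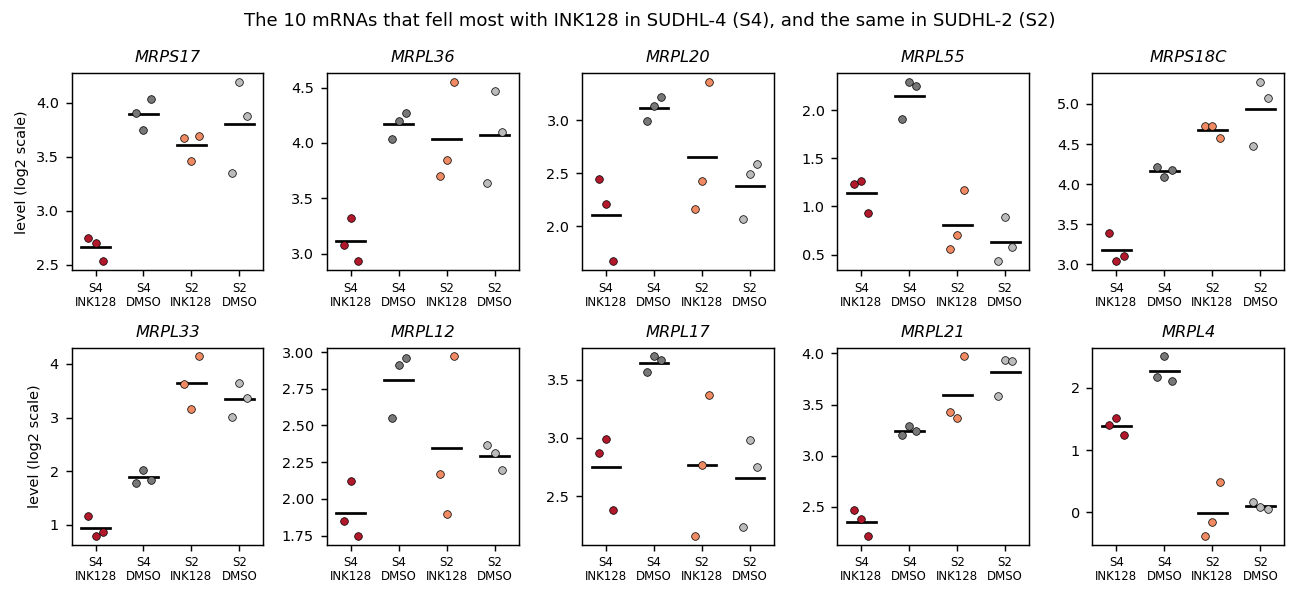
Levels on the log2 scale of the 10 mRNAs with the largest called decreases with INK128 in SUDHL-4, 1 point per array and a bar at each group mean, with INK128 left of DMSO in each line. In SUDHL-4 the INK128 arrays lie below the DMSO arrays for all 10, from 2.53 to 2.75 against 3.75 to 4.03 for MRPS17, while in SUDHL-2 the groups overlap for all 10.

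Both subunits and both classes of protein took part. The level fell for 18 of 50 large-subunit mRNAs and 7 of 26 small-subunit mRNAs, with a median of -0.39 in each. Among bacterial-type proteins it fell for 20 of 47, with a median of -0.50. Among those specific to mitochondria it fell for 5 of 29 (MRPL38, MRPL46, MRPL52, MRPL58 and MRPS26), with a median of -0.37. The difference between the classes was not tested.

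Without each of the 6 SUDHL-4 arrays in turn, between 16 and 22 of the 76 were called, all lower, the fewest without DMSO replicate 2. Of the 25, 15 were called every time. Shares over all genes in these fits are not given beside the counts. MRPL17 and MRPS5 were called in none of these 6 fits (adjusted p up to 0.163 for MRPL17), and MRPL20 lost its call in 5 of them (up to 0.114), MRPL12 in 4 (up to 0.0722) and MRPL33 in 2 (up to 0.0540). MRPL32 kept its call in 1 of the 6, MRPL46 in 2, and MRPL24, MRPL38 and MRPS15 in 4.

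Other parts of mitochondrial gene expression were read from lists of related genes. No list was tested against another or against all genes, whose shares are given above. Of 4 mitochondrial ribosome subunits known under other symbols, CHCHD1 fell (-0.62, adjusted p = 0.0269), and the median was -0.26. Of 20 assembly factors 5 fell and 0 rose, with a median of -0.35. They included MPV17L2 (-0.93, adjusted p = 0.00746), MRM1, an rRNA methyltransferase (-0.62, adjusted p = 0.0125), and MTG1, a GTPase (-0.51, adjusted p = 0.00459). Of 15 translation factors 2 fell, with a median of -0.10. These were SLIRP, which binds and protects mitochondrial mRNAs with LRPPRC (-1.23, adjusted p = 0.00559), and TACO1, an activator of COX1 translation (-0.48, adjusted p = 0.0266).

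The enzymes that charge mitochondrial tRNAs moved both ways. Of 18, AARS2 and GATC fell and GATB and IARS2 rose, with a median of -0.15. GATC and GATB are subunits of the same amidotransferase, which makes the glutamine-charged tRNA of mitochondria, and they changed by -0.83 (adjusted p = 0.00206) and 0.58 (adjusted p = 0.00266). Of 12 regulators POLRMT, the mitochondrial RNA polymerase (-0.74, adjusted p = 0.0169), and PPRC1, a relative of the PGC-1 coactivators (-0.50, adjusted p = 0.0273), fell, with a median of -0.01. Of 75 cytosolic ribosomal protein genes 10 fell and 1 rose, with a median of -0.07. These mRNAs carry the terminal oligopyrimidine start for which mTOR-dependent translation is best known, and many have near-identical pseudogenes with which probes can share signal.

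RefSeq promoters were matched to 68 of the 76 genes by symbol, each a window of 300 bases of GRCh38.p14 with 250 before and 50 after the start of the gene. Some promoters are shown as a description, and whether they had a part in any change was not tested. They are those of MRPS17, MRPL36 and MRPL20, with the largest decreases, and of MRPL52, with the smallest adjusted p. Also shown are those of MRPS18C, whose relatives did not pass the test, and of MRPL46, which shares its promoter region with MRPS11. The last is that of MRPS34, which comes first with EtOH below. Each is written 5′ to 3′ in the direction of its gene. Capitals mark exact matches on either strand to 5 short motifs, namely ACTTCCGG (ETS family), GCATGCGC (NRF1), AAGATGGC (YY1), CACGTG (E-box) and CCAAT. The NRF1 letters can overlap their own reverse complement, the E-box is its own reverse complement, and matches of different motifs overlapped in 0 places in these promoters.
MRPS17: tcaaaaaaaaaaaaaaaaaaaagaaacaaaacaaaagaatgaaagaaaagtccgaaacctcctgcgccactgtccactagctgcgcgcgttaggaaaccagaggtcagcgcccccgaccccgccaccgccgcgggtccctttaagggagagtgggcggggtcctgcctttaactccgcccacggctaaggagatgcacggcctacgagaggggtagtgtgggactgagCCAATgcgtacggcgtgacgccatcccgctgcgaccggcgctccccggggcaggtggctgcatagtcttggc
MRPL36: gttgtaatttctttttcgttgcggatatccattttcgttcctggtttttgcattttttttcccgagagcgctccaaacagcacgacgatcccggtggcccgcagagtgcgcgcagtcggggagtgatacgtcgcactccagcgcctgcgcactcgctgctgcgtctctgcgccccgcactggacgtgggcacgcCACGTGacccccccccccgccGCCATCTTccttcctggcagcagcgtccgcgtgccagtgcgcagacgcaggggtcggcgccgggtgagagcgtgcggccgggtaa
MRPL20: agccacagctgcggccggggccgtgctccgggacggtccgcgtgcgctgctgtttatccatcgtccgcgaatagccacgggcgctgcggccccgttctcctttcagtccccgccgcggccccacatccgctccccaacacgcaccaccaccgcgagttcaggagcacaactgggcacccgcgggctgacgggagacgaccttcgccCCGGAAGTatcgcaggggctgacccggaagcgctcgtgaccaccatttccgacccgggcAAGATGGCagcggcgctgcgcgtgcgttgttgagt
MRPL52: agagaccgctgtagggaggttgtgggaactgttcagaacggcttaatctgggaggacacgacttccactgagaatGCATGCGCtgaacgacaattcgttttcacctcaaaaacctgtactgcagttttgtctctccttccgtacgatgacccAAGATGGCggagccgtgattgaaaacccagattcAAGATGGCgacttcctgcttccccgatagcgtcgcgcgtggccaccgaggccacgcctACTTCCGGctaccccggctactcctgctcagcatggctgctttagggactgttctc
MRPS18C: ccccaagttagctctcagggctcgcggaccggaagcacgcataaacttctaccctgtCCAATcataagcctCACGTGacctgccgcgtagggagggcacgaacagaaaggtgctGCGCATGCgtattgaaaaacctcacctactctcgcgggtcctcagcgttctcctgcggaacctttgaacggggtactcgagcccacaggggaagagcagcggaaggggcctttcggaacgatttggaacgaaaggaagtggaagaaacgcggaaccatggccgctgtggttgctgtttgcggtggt
MRPL46: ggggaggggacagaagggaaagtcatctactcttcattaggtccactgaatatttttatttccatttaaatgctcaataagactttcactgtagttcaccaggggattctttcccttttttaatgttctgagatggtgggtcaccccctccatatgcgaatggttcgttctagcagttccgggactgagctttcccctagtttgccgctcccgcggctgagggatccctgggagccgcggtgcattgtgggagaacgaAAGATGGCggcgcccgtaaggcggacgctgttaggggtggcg
MRPS34: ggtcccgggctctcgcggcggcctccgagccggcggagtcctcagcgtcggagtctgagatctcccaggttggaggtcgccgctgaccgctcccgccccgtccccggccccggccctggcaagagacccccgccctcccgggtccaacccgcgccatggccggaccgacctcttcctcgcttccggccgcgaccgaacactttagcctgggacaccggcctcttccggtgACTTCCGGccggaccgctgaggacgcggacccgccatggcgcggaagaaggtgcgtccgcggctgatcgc

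The MRPS17 window (chr7:55951627-55951926, plus strand) held only a CCAAT, 22 bases before the start. The MRPL36 window (chr5:1799788-1800087, minus strand) held an E-box 56 bases and the YY1 letters, on the reverse strand, 35 bases before the start. The MRPL20 window (chr1:1407244-1407543, minus strand) held ETS letters 44 bases before the start and YY1 letters at base 16 after it. The MRPL52 window (chr14:22829637-22829936, plus strand) had the most matches of those shown, with NRF1 letters 175 bases, YY1 letters 98 and 64 bases and ETS letters 6 bases before the start. The MRPS18C window (chr4:83455808-83456107, plus strand) held CCAAT, E-box and NRF1 letters 193, 179 and 136 bases before the start. The MRPS34 window (chr16:1773085-1773384, minus strand) held ETS letters 20 bases before the start. Distances run from the first printed letter of a match.

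The YY1 letters were found in 20 of the 68 promoters (29.4%), against 2.89% of all 35116 promoters in the table. The ETS letters were found in 14.7% of the 68 and 4.14% of all, the NRF1 letters in 8.82% of the 68 and 3.05% of all, the E-box in 8.82% of the 68 and 7.26% of all, and CCAAT in 27.9% of the 68 and 34.6% of all. None of the 5 was found in 30 of the 68, and 18 held 2 or more. Genes whose mRNA fell with INK128 in SUDHL-4 were 23 of the 68. Of these 26.1% held the YY1 letters, against 31.1% of the other 45, and 13% held the ETS letters, against 15.6%. The NRF1 letters were in 17.4% of the 23, which is 4 promoters, and in 4.44% of the other 45, which is 2. A match is a string of letters and not a bound site.

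MRPL46 and MRPS11 lie head to head on chromosome 15, and their windows share 181 bases, chr15:88467458-88467638, the only such pair among the 68. MRPL46 (chr15:88467339-88467638, minus strand) has YY1 letters at base 9 after its start. MRPS11 was chosen for this position after its values were seen. With INK128 in SUDHL-4, MRPL46 fell by 0.64 (adjusted p = 0.0204), and MRPS11 had a fold change of -0.57 (adjusted p = 0.143). The call of MRPL46 was kept in 2 of the 6 fits that left out 1 array.

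In SUDHL-2 the same exposure to INK128 gave 0 called genes of the 76, in either direction, against 2.15% called higher and 1.47% called lower over all genes tested. At an unadjusted p under 0.05 limma counted 13 lower (17.1%) and 5 higher (6.58%), against 8.38% lower and 9.25% higher over all genes. The median of the 76 was -0.07, against 0.03 over all genes, and the range was -0.97 to 0.78. The median 95% interval of a fold change, not adjusted for the number of tests, reached 0.39 to either side. It is not a limit of detection, since the changes of -0.97 and 0.78 were not called either.

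The array medians of the 76 in SUDHL-2, against the DMSO mean, were -0.13, -0.17 and 0.01 with INK128 and -0.10, 0.08 and 0.03 with DMSO. The groups overlapped. The third INK128 array was the highest of the 3 for MRPL36, MRPL20 and MRPL12, and without it the median of the 76 was -0.15. The smallest p-values belonged to MRPS22, a small-subunit protein specific to mitochondria (-0.50, adjusted p = 0.0579), and MRPL2, a core protein near the catalytic centre (-0.48, adjusted p = 0.0632). Their levels did not overlap between the groups: MRPS22 was at 3.81, 4.08 and 3.75 with INK128 and 4.13, 4.54 and 4.48 with DMSO. On the high side were MRPS10 (0.49, adjusted p = 0.173) and MRPS6 (0.29, adjusted p = 0.197). The ends of the range were MRPL1 (-0.97, adjusted p = 0.281) and MRPL41 (0.78, adjusted p = 0.198), named after their values were seen. MRPL1 had a wide spread, with means of 2.05 ± 0.99 with INK128 and 3.02 ± 0.55 with DMSO (SD, n = 3 each).

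The count of 0 depended on the settings. It was 10 (2 higher and 8 lower) under the thresholds that the study's methods state (2.63% higher and 10.5% lower, against 5.14% each over all genes), 8 (1 higher and 7 lower) when all 23 arrays were fitted together, and 3, all lower, after quantile normalization. It was 1 without DMSO replicate 1, 2 without INK128 replicate 1 and 1 without INK128 replicate 3, lower in each case. Except under the methods' thresholds, these counts are given without the share over all genes in the same fit.

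The 25 mRNAs that fell in SUDHL-4 were spread around 0 in SUDHL-2. There 12 had a fold change below 0 and 13 above, with a median of 0.04 and a range of -0.48 (MRPL2) to 0.44 (MRPL14), and 0 were called. Across the 76 genes the fold changes of the lines had a correlation of -0.22 (Pearson) and -0.26 (Spearman), against 0.23 (Pearson) over all 14636. Genes share the arrays, so these are descriptions. Of the assembly factors, C1QBP, a matrix protein that binds the mitochondrial ribosome, fell with INK128 in both lines (-0.76, adjusted p = 0.00855 in SUDHL-2, and -0.41, adjusted p = 0.0422 in SUDHL-4). None of the other lists of mitochondrial translation, regulators included, had a call in SUDHL-2. Of the 75 cytosolic ribosomal protein genes 1 fell there, with a median of 0.10.

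The difference between the lines was then tested for each gene, as the INK128 response in SUDHL-2 minus that in SUDHL-4. It was called above 0 for 8 of the 76 (10.5%) and below 0 for 0, against 2.19% and 2.14% over all genes tested. The largest called was that of MRPL14, with a response of 0.44 in SUDHL-2 and -0.84 in SUDHL-4, a difference of 1.27 (SE 0.26, adjusted p = 0.0198), and a larger one, 1.40 for MRPL41, did not pass the test (adjusted p = 0.0960). MRPL33 had responses of 0.30 in SUDHL-2 and -0.94 in SUDHL-4 (difference 1.24, SE 0.31, adjusted p = 0.0456), MRPL55 of 0.18 in SUDHL-2 and -1.01 in SUDHL-4 (difference 1.19, SE 0.26, adjusted p = 0.0234), and MRPS17 of -0.20 in SUDHL-2 and -1.23 in SUDHL-4 (difference 1.03, SE 0.25, adjusted p = 0.0412). MRPL52, MRPL18, MRPS21 and MRPS26 made up the 8, each with a response of 0.10 or 0.11 in SUDHL-2 and a called decrease in SUDHL-4. All 8 were therefore among the 25.

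The INK128 and DMSO levels of MRPL14 were apart in SUDHL-4 and overlapped in SUDHL-2. MRPL14 was at 1.65, 1.65 and 1.41 with INK128 and 2.17, 2.48 and 2.56 with DMSO in SUDHL-4, and at 3.52, 3.18 and 3.89 with INK128 and 2.83, 3.12 and 3.32 with DMSO in SUDHL-2. The count of 8 changed with single arrays. Without DMSO replicate 1, DMSO replicate 3 or INK128 replicate 3 of SUDHL-2 it was 5, 3 and 4, without DMSO replicates 1, 2 and 3 of SUDHL-4 it was 4, 2 and 1, and without any of the INK128 replicates of SUDHL-4 it was 4. Without INK128 replicates 1 and 2 of SUDHL-2 it was 12 and 9, and with all 23 arrays in 1 fit it was 22. Shares over all genes in these fits are not given beside the counts. The lost calls included those of MRPS17 and MRPL33 in 9 of 12 such fits, while the call of MRPL14 was lost in 2 (adjusted p up to 0.0619).

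**Figure D3:**
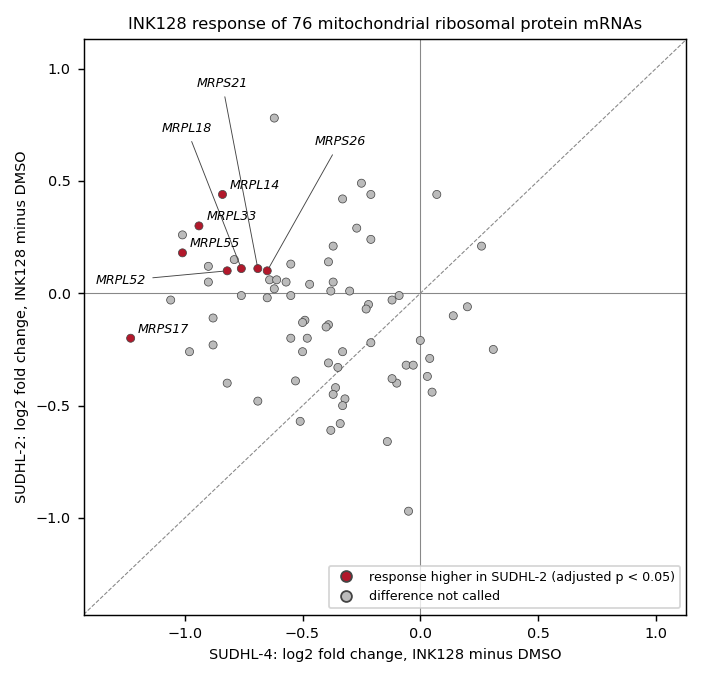
INK128 response of each of the 76 mRNAs, as log2 fold change, in SUDHL-4 (horizontal) against SUDHL-2 (vertical), with a dashed line of equal response. The 8 coloured points, named, are the genes whose line difference limma called, and all lie above the dashed line, between MRPS26 (difference 0.75) and MRPL14 (difference 1.27).

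With EtOH in SUDHL-2, 1 gene stood far from the rest. Of the 76, 2 rose (2.63%) and 6 fell (7.89%), against 8.94% called higher and 7.24% called lower over all genes tested, so that the shares were near or below those of all genes. The median of the 76 was -0.02, against 0.05 over all genes. A block set EtOH and water arrays of the same title number together. With it 6 rose (7.89%) and 7 fell (9.21%), against 12.1% and 9.07% over all genes in the same fit. EtOH values below are from the fit without a block unless a block is named.

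MRPS34, a small-subunit protein specific to mitochondria that the small subunit needs for its stability, had the largest change of the 76 in any treatment. In SUDHL-2 its level was -0.46 and -1.06 with EtOH, against 2.12, 1.54 and 1.77 with water. The fold change was -2.57 (SE 0.23, adjusted p = 7.02e-05), a 5.93-fold decrease, and both EtOH arrays lay below every water array. A single probe, detected on every array, measured the gene. The call held without each array in turn, with an adjusted p of at most 0.00210, and under every alternative tried.

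In SUDHL-4 MRPS34 was at 1.41, 2.04 and 1.64 with EtOH and 2.64, 2.27 and 2.28 with water, a change of -0.70 that did not pass the test (adjusted p = 0.154), although the groups did not overlap. Its response to EtOH differed between the lines by -1.87 (SUDHL-2 minus SUDHL-4, SE 0.31, adjusted p = 0.00764). With INK128 the fold change of MRPS34 was 0.06 in SUDHL-2 and -0.61 in SUDHL-4 (adjusted p = 0.0609). Its level on the DMSO arrays of SUDHL-2 was 0.05, 0.35 and 0.32, nearer to the EtOH arrays than to the water arrays of the same line, and the vehicle and the experiment it belonged to cannot be told apart.

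MRPL20 and MRPL12, both lower with INK128 in SUDHL-4, also fell with EtOH in SUDHL-2. MRPL20 was at 2.40 and 2.45 with EtOH and 3.45, 2.94 and 3.43 with water, a change of -0.85 (SE 0.15, adjusted p = 0.00298), and each of its 2 probes fell when tested apart (-0.62 and -1.07). MRPL12 was at 3.22 and 2.76 with EtOH and 3.88, 3.61 and 3.84 with water, and fell by 0.79 (SE 0.16, adjusted p = 0.00763). The groups did not overlap for either, but without EtOH replicate 2 the adjusted p of MRPL12 was 0.102.

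The other decreases with EtOH in SUDHL-2 were smaller. MRPL45, which ties the ribosome to the inner membrane, fell by 0.41 (adjusted p = 0.0241), but its 2 probes went apart. One was at 0.13 and 0.15 with EtOH and 1.05, 1.28 and 0.98 with water, a called change of -0.97, and the other at 2.81 and 2.83 with EtOH and 2.63, 2.74 and 2.62 with water, a change of 0.16. The call for the gene rests on the first probe. MRPS35 fell by 0.38 (adjusted p = 0.0313). MRPS18A was called at -0.40 (adjusted p = 0.0470), but not with the replicate block (-0.39, adjusted p = 0.0542) and not under 12 of 14 alternatives, and without EtOH replicate 2 its change was -0.17. The 2 that rose were MRPL34 (0.58, adjusted p = 0.0221), at 2.91 and 2.93 with EtOH and 2.39, 2.08 and 2.54 with water, and MRPL9 (0.34, adjusted p = 0.0230), at 1.71 and 1.67 with EtOH and 1.27, 1.34 and 1.44 with water.

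Probes also disagreed for MRPS12, which encodes a protein of the decoding centre, and for MRPL43. Of 4 MRPS12 probes 1 fell, at -1.22 and -1.96 with EtOH and 0.42, -0.06 and -0.12 with water (-1.67), while the others changed by 0.07, 0.08 and -0.07, and the averaged gene was not called (-0.40, adjusted p = 0.0787; with the replicate block -0.40, adjusted p = 0.0272). The probe that fell was detected on all 23 arrays, and the one detected on 4 arrays was that at -0.07. Of 3 MRPL43 probes 1 was called (-0.29), the one detected on 8 arrays, and the others changed by -0.43 and 0.23. The signs of the probes therefore differed within each of these genes.

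**Figure D4:**
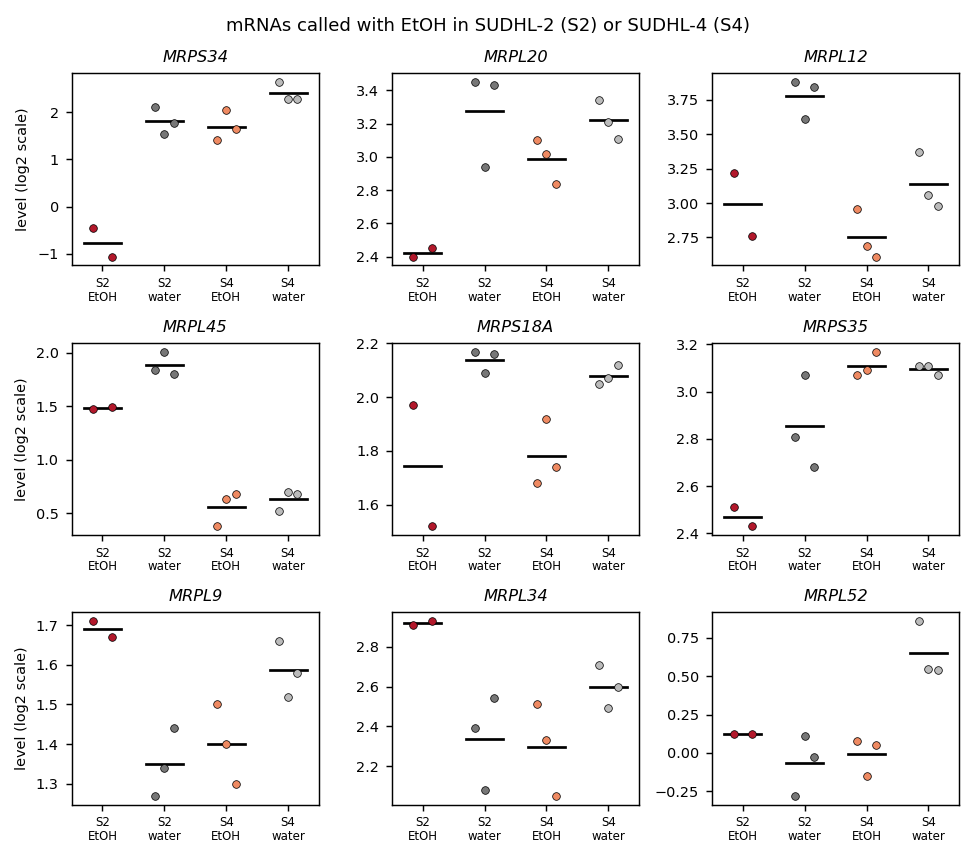
Levels on the log2 scale of the mRNAs called with EtOH in either line, 1 point per array and a bar at each group mean, with EtOH left of water in each line. MRPS34 in SUDHL-2 lies at -0.46 and -1.06 with EtOH, below its water arrays at 1.54 to 2.12, and MRPL52 is the gene called in SUDHL-4.

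Only 2 arrays carried EtOH RNA of SUDHL-2, so that a fit without 1 of them rests on a single EtOH array. When 1 array at a time was left out, the count of 8 was 5 without water replicate 1. Shares over all genes in such fits are not given. The calls of MRPL9, MRPL34, MRPL45 and MRPS35 were each lost in 3 of 5 such fits and that of MRPS18A in 4 of 5.

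In SUDHL-4 with EtOH, 1 of the 76 was called (1.32%), against 0.307% called higher and 0.082% called lower over all genes tested. This was MRPL52, at 0.08, -0.15 and 0.05 with EtOH and 0.86, 0.55 and 0.54 with water, a change of -0.66 (SE 0.12, adjusted p = 0.0447). It was also called lower with INK128 in the same line. The groups were apart, yet the call was lost without any 1 of the 6 arrays (adjusted p up to 0.168), and 0 of the 76 were called with a replicate block. At an unadjusted p under 0.05, 19 were lower (25%) and 2 higher (2.63%), against 5.51% lower and 8.49% higher over all genes, and under the thresholds of the methods 13 were lower (17.1%) and 1 higher (1.32%), against 2.98% and 5.27%. The fold change was below 0 for 53 of the 76, against 8203 of all 14636, and the median of the 76 was -0.08, against -0.03 over all genes. On the high side, MRPS31 (0.34, adjusted p = 0.265) and MRPS9 (0.25, adjusted p = 0.287) had the smallest p-values.

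The forms of the S18 protein were at -0.40 (MRPS18A), 0.14 (MRPS18B) and -0.07 (MRPS18C) with EtOH in SUDHL-2 and at -0.30, -0.08 and -0.09 with EtOH in SUDHL-4. With INK128 in SUDHL-2 they were at -0.01, -0.32 and -0.26. MRPS18A with EtOH in SUDHL-2 was the only called value among these, and differences among the forms were not tested.

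With EtOH in SUDHL-2, genes of other lists of mitochondrial translation were called in both directions. The counts are to be read beside the shares over all genes given above for that comparison, and no list was tested against them. Of 20 assembly factors 4 rose and 1 fell, with a median of 0.17, and RBFA, which matures the small subunit, rose by 0.61 (adjusted p = 0.0181), METTL15 by 0.37 (adjusted p = 0.0239) and NOA1 by 0.35 (adjusted p = 0.0358). Of 18 tRNA-charging enzymes 3 rose, namely LARS2 (0.44, adjusted p = 0.00496), FARS2 (0.38, adjusted p = 0.00803) and TARS2 (0.61, adjusted p = 0.0124), with a median of 0.14. Of the 12 regulators NRF1, a transcription factor of nuclear genes for mitochondrial proteins, rose (0.45, adjusted p = 0.00481) and the coactivator PPARGC1B fell (-0.66, adjusted p = 0.0338). Of the 75 cytosolic ribosomal protein genes 9 fell, with a median of 0.00. In SUDHL-4 with EtOH none of the lists of mitochondrial translation had a call, and of the cytosolic ribosomal protein genes 1 fell, with a median of -0.19.

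The line difference of the EtOH response was called above 0 for 4 of the 76 (5.26%) and below 0 for 1 (1.32%), against 2.97% and 2.34% over all genes tested. Beside MRPS34, the genes were MRPL34 (0.58 in SUDHL-2 and -0.31 in SUDHL-4, difference 0.89, adjusted p = 0.0307), MRPL52 (0.19 in SUDHL-2 and -0.66 in SUDHL-4, difference 0.84, adjusted p = 0.0225), MRPL9 (0.34 in SUDHL-2 and -0.19 in SUDHL-4, difference 0.53, adjusted p = 0.0305) and MRPL46 (0.18 in SUDHL-2 and -0.34 in SUDHL-4, difference 0.52, adjusted p = 0.0483). MRPL52 was the gene whose response differed between the lines, in the same direction, with both agents. With a replicate block by the numbers in the titles the difference was called above 0 for 10 genes (13.2%) and below 0 for 1 (1.32%), against 5.57% and 4.61% over all genes, and by those in the sample names the count was 10. Without a block, the count was 1 when SUDHL-4 EtOH replicate 2 was left out. It was 2 when SUDHL-2 water replicate 1, SUDHL-4 water replicate 1 or 3 or SUDHL-4 EtOH replicate 3 was left out. The call of MRPS34 held each time, and shares over all genes in these fits are not given.

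The agents were also set against each other within a line, as the EtOH response minus the INK128 response in 1 fit of all 23 arrays. Agent, exposure time and vehicle differed together and cannot be told apart. Sealed flasks are described for EtOH, and the methods do not describe the flasks of the other groups. In SUDHL-4 the difference was called above 0 for 11 of the 76 (14.5%) and below 0 for 0, against 4.51% and 4.74% over all genes tested. MRPS17 had responses of -0.19 with EtOH and -1.23 with INK128 (difference 1.05, SE 0.21, adjusted p = 0.00350), MRPL55 of -0.10 with EtOH and -1.01 with INK128 (difference 0.91, adjusted p = 0.0265), MRPS18C of -0.09 with EtOH and -0.98 with INK128 (difference 0.89, adjusted p = 0.0129), and MRPS15 of 0.09 with EtOH and -0.79 with INK128 (difference 0.88, adjusted p = 0.0180). The other 7 were MRPS2, MRPL58, MRPL21, MRPL18, MRPS9, MRPS5 and MRPL24, with differences of 0.76 to 0.48. Of the 25 mRNAs that fell with INK128 in SUDHL-4, 22 had a fold change below 0 with EtOH in that line, with a median of -0.16, and 1 of them was called. The count of 11 was 6 without DMSO replicate 2, 7 without water replicate 2 and 6 without water replicate 3. Shares over all genes in these fits are not given.

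In SUDHL-2 the difference between the agents was called above 0 for 1 gene and below 0 for 1 gene (1.32% each), against 2.69% and 3.51% over all genes tested. MRPS34 had responses of -2.57 with EtOH and 0.06 with INK128, a difference of -2.63 (adjusted p = 4.59e-05). MRPS9 had responses of 0.30 with EtOH and -0.33 with INK128, a difference of 0.63 (adjusted p = 0.0455), a call lost in 8 of 11 fits that left out 1 array (adjusted p up to 0.218). The count of 2 was 5 without INK128 replicate 3 and 1 without water replicate 1 or 3, again given without shares over all genes. Across the 76 genes the fold changes of the agents had a Pearson correlation of 0.38 and a Spearman correlation of 0.42 in SUDHL-4, and of 0.03 and 0.22 in SUDHL-2. Over all genes the Pearson correlation was 0.25 in SUDHL-4 and 0.22 in SUDHL-2.

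Vehicle-treated cells of the lines differed in many of these mRNAs, in both directions. With DMSO, 27 of the 76 were higher in SUDHL-2 (35.5%) and 26 lower (34.2%), against 26.9% and 29.1% over all genes tested. With water, 24 were higher (31.6%) and 23 lower (30.3%), against 27.5% and 38.3%. The 10 largest differences above 0 with DMSO ran from 1.04 (MRPL15) to 2.08 (MRPL1), and the 10 largest below 0 from -1.06 (MRPS26) to -2.16 (MRPL4).

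The genes called lower in SUDHL-2 with both vehicles were 12, which is 46.2% of those lower with DMSO and 52.2% of those lower with water: MRPL4, MRPL17, MRPL23, MRPL37, MRPL51, MRPL52, MRPL54, MRPL57, MRPS6, MRPS9, MRPS27 and MRPS34. MRPL4 was at 0.17, 0.09 and 0.05 in SUDHL-2 against 2.17, 2.50 and 2.11 in SUDHL-4 with DMSO, a difference of -2.16 (adjusted p = 9.51e-07). With water it was at 1.61, 1.34 and 1.66 in SUDHL-2 against 2.88, 2.58 and 2.47 in SUDHL-4, a difference of -1.11 (adjusted p = 7.59e-05). The lines did not overlap with either vehicle. MRPL52 differed by -1.34 with DMSO and -0.72 with water, and MRPS9, of the small subunit, by -0.56 with DMSO and -1.14 with water. Over all genes tested 2685 were lower with both vehicles, 63% of those lower with DMSO and 47.9% of those lower with water.

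The genes called higher in SUDHL-2 with both vehicles were also 12, which is 44.4% of those higher with DMSO and 50% of those higher with water, against 64.7% and 63.3% over all genes: MRPL1, MRPL14, MRPL19, MRPL21, MRPL30, MRPL33, MRPL40, MRPL45, MRPL46, MRPL50, MRPS21 and MRPS31. MRPL45 was at 2.33, 2.12 and 2.40 in SUDHL-2 against 0.41, 0.13 and 0.29 in SUDHL-4 with DMSO, a difference of 2.01 (adjusted p = 9.13e-07). With water the difference was 1.25. MRPL33 differed by 1.46 with DMSO and 1.43 with water, MRPL40 by 1.66 with DMSO and 0.90 with water, and MRPL1 by 2.08 with DMSO and 0.57 with water. Of the 25 mRNAs that fell with INK128 in SUDHL-4, MRPL14, MRPL21, MRPL33, MRPL46 and MRPS21 belong to this group, and MRPL4, MRPL17 and MRPL52 to the one before it. With 1 array left out, 21 of these 24 genes kept the DMSO call every time, all but MRPL30, MRPL46 and MRPL51, and 16 the water call, all but MRPL1, MRPL17, MRPL23, MRPL30, MRPL37, MRPL54, MRPS27 and MRPS34 (adjusted p up to 0.212).

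In 5 genes (6.58%) the calls of the vehicles went opposite ways, against 3.71% over all genes. MRPL35, MRPL47, MRPS23 and MRPS35 were higher in SUDHL-2 with DMSO and lower with water, and MRPS2 was lower with DMSO and higher with water. MRPL47 differed by 1.01 with DMSO and -0.40 with water, and MRPS2 by -0.36 with DMSO and 0.65 with water. A further 24 genes were called with DMSO only, among them MRPL13 (1.58), MRPL39 (1.34), MRPL34 (-1.65) and MRPS24 (-1.53), and 18 with water only, among them MRPL41 (1.26), MRPL49 (1.26), MRPL43 (1.16) and MRPS17 (-1.08). The value of MRPL43 was 1.66 without its probe detected on 8 arrays and 0.28 by the probe with the largest p. The vehicle and the experiment differ together between these comparisons and cannot be told apart.

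**Figure D5:**
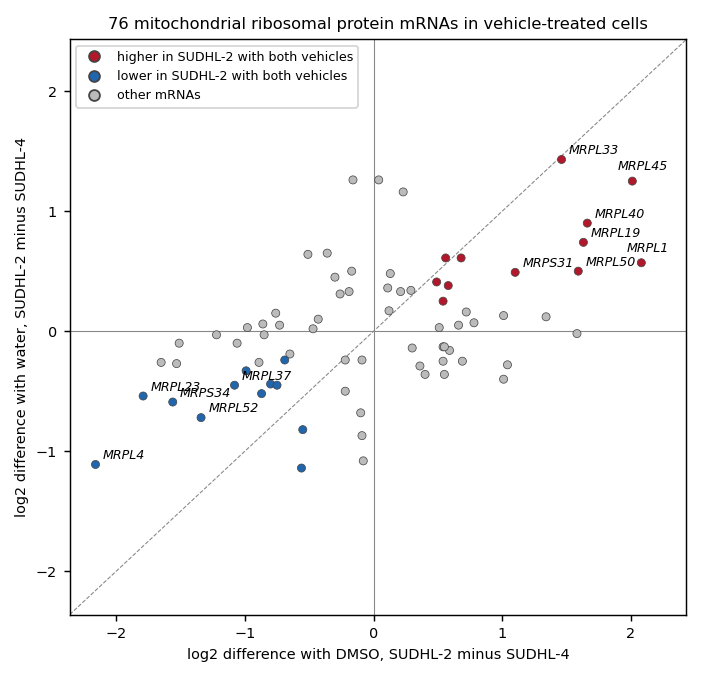
Difference between the lines, SUDHL-2 minus SUDHL-4 on the log2 scale, for each of the 76 mRNAs with DMSO (horizontal) and with water (vertical), with a dashed line of equal difference. Coloured points are genes called in the same direction with both vehicles, 12 higher and 12 lower in SUDHL-2, and MRPL4 lies at -2.16 with DMSO and -1.11 with water.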

How the data were processed

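Polysomal RNA of 8 groups was hybridised to 23 Illumina HumanHT-12 BeadChips, called version 4 in the labels and an earlier version in the methods. Arrays were read by the authors in GenomeStudio 1.9.0 (submitters' processing notes), who deposited each probe's non-normalized signal intensity with a detection p-value. A score table they also deposited holds Z-scores and served as an alternative. Which test gave the study's p-values is not stated in the sources read.

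Of 47323 probes 92 had no values. Probes with a detection p of 0.02 or less on all arrays of 1 or more groups were kept (18136). Signals were raised to the lowest detected signal of their array (59.4 to 91.4), taken to log2, Z-scored per array over kept probes and multiplied by the mean array SD (2.03). Probes of 1 gene symbol were averaged, which gave 14636 entries, 10546 genes and 4090 probes without a single symbol in the platform annotation. The number of arrays limits the precision.

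The 4 groups of an experiment were fitted together with limma 3.58.1 (R 4.3.3; lmFit, eBayes, two-sided moderated tests), and EtOH was set against INK128 in 1 fit of all arrays. The scripts were tested on simulated data. Genes were named by rule: all called in a direction where 10 or fewer, otherwise the 10 largest changes, and where none was called the 2 smallest p-values, together with the largest differences, genes with discordant probes, the MRPS18 forms and up to 3 genes of each list. The members, the lists and the rule were chosen with earlier results of these data known. Alternatives covered normalization, background, filter, floor, probes, samples in the fit, variance model, replicate block, leaving out each array and the methods' thresholds.

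Pairing was checked as the correlation of the deviations of same-numbered arrays from their group means. For EtOH and the numbers in the titles it was 0.42 and 0.55 for SUDHL-2, and 0.39, 0.19 and 0.14 for SUDHL-4. For the numbers in the sample names it was also 0.42 and 0.55 for SUDHL-2, and 0.39, 0.04 and 0.25 for SUDHL-4. These values do not settle which numbering pairs the EtOH arrays. The main fits held no block, and EtOH results with a block by either numbering are given as alternatives. For INK128 the correlation was 0.47, -0.21 and 0.27 for SUDHL-2 and -0.30, 0.22 and 0.17 for SUDHL-4, by either numbering. The signs differed within each line, and the INK128 numbers were not taken to pair the arrays. Promoters came from RefSeq's table of GRCh38.p14.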

Additional observations from a re-analysis of the deposited data

Results flagged for a closer look

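The responses to INK128 differed between the lines for 8 of the 76 genes, by limma's test of the difference (SUDHL-2 minus SUDHL-4, adjusted over all genes tested). The differences were 1.27 for MRPL14 (adjusted p = 0.0198), 1.24 for MRPL33 (adjusted p = 0.0456), 1.19 for MRPL55 (adjusted p = 0.0234) and 1.03 for MRPS17 (adjusted p = 0.0412). They were 0.92 for MRPL52 (adjusted p = 0.0104), 0.87 for MRPL18 (adjusted p = 0.0146), 0.80 for MRPS21 (adjusted p = 0.0292) and 0.75 for MRPS26 (adjusted p = 0.0491). In each of the 8 a decrease was called in SUDHL-4. None of them was called in SUDHL-2, where the fold change was above 0 for all but MRPS17 (-0.20).

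The responses to EtOH differed between the lines for 5 genes. The differences were -1.87 for MRPS34 (adjusted p = 0.00764), 0.89 for MRPL34 (adjusted p = 0.0307), 0.84 for MRPL52 (adjusted p = 0.0225), 0.53 for MRPL9 (adjusted p = 0.0305) and 0.52 for MRPL46 (adjusted p = 0.0483). The call of MRPL46 was lost in all 11 fits that left out 1 array (adjusted p up to 0.183). No group had enough arrays for a test of single outlying arrays.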

How the results depend on the processing

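Counts of called genes in this section are of the 76 alone unless all genes are named. A shift in calls over all genes could move them. The 25 decreases with INK128 in SUDHL-4 were 17 to 37 under the other alternatives, all lower, and 16 to 22 with 1 array left out. The median of the 76 there was -0.52 with median centring and -0.44 to -0.38 with 1 array left out. Median centring also moved the split of all called genes, to 642 higher and 1219 lower with INK128 in SUDHL-4, against 1210 and 1050, and to 129 and 155 in SUDHL-2, against 315 and 215. With the deposited Z-scores the split with EtOH in SUDHL-2 was 959 higher and 1197 lower, against 1308 and 1059.

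The count of 0 with INK128 in SUDHL-2 was 3 after quantile normalization, 8 with all arrays in 1 fit, 1 with each probe kept apart, 10 under the methods' thresholds and 0 to 2 with 1 array left out, when the median was -0.15 to -0.04. The count of 8 with EtOH in SUDHL-2 was 3 without a detection filter, 4 with each line fitted alone, 3 with all arrays in 1 fit, 4 under the methods' thresholds and 2 to 8 with 1 array left out. The median there was 0.06 with median centring, against -0.02. MRPL45 changed sign, to 0.16, when its probe with the largest p stood for the gene. The count of 1 with EtOH in SUDHL-4 was 0 without a detection filter, with Z-scores over all probes, with the line fitted alone, with each probe kept apart and in every fit that left out 1 array, and 14 (1 higher and 13 lower) under the methods' thresholds.

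The 8 line differences with INK128 were 3 without a detection filter, 5 with the deposited Z-scores, 22 with all arrays in 1 fit, 5 with an intensity trend and robust variance, and 1 to 12 with 1 array left out. The 5 with EtOH were 8 with median centring, 3 after normexp, 3 with probes detected on every array, 2 without a detection filter, 3 with the deposited Z-scores, 2 with all arrays in 1 fit, 3 with the trend and 1 to 5 with 1 array left out. EtOH minus INK128 in SUDHL-2 gave 5 with median centring and with each probe kept apart, and 1 after normexp, with probes detected on every array, with the line fitted alone or with the trend (1 to 5 with 1 array left out). In SUDHL-4 the 11 were 5 without a detection filter, 19 with the line fitted alone and 6 to 10 with 1 array left out. The vehicle comparisons kept 43 to 49 (DMSO) and 36 to 42 (water) calls with 1 array left out.

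With a replicate block by the title numbers, 13 genes were called with EtOH in SUDHL-2, 0 in SUDHL-4 and 11 for the line difference; by the sample names these were 11, 0 and 10. The INK128 numbers were not taken to pair the arrays, and a block gave 30 calls in SUDHL-4 and 0 in SUDHL-2. The block moved no other count by over 1.5 times, and it could not be fitted for the vehicle comparisons, where each number lies within 1 line. Of 1187 values of named genes under all alternatives but leaving out 1 array, 88 lost and 10 gained a call. The sign changed for 9, of which 1 was called, that of MRPL45, and 8 were called in neither fit (at most 0.23 in size). Without a detection filter MRPS18C was at -0.51 with INK128 in SUDHL-4, against -0.98. The cause of these shifts was not tested. Every gene had a probe detected on every array, but averaged probes of MRPS12 and MRPL43 were detected on only 4 and 8 arrays. How far signal over background or the number of arrays limited the results was not tested. The median 95% interval, not adjusted for the number of tests, was 0.39 to either side for INK128. For EtOH it was 0.28 in SUDHL-2 and 0.25 in SUDHL-4.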
